A study of Mus musculus with 2 samples.

Results

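The 10 heat shock protein genes *Hspa1a*, *Hspa1b*, *Hspa8*, *Hsp90aa1*, *Hsp90ab1*, *Hspb1*, *Dnajb1*, *Dnaja1*, *Hsph1* and *Hspe1*, of 32285 genes in the matrices, were followed in 2 droplet scRNA-seq libraries of sorted mouse skin cells. They were chosen by name as the main chaperones of the cytosol and all 10 had UMIs, the counted molecules, in the melanocytes of both libraries. *Hspe1* is an exception to the name of the set, since its product works in the mitochondrial matrix with that of *Hspd1*. Levels are given as CPM, the UMIs of a gene per 1000000 UMIs of a cell group.

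Both libraries came from Dct-rtTA; tetO-H2B-GFP mice given doxycycline for 4 days, so that GFP was driven by the promoter of a melanocyte gene, and GFP-positive cells were sorted by FACS. The early anagen library, labelled activated McSC (melanocyte stem cells), was from mice of 8 weeks of age, taken 4 days after depilation. The bulb library, labelled differentiated Mc, was from hair bulbs in anagen of mice of 5 weeks of age. Each library pooled 4 mice, and no sample without doxycycline or GFP was used here.

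Melanocytes were the cells with at least 1 *Dct* UMI and fewer than 3 *Krt10* and *Krt14* UMIs, less than 5% mitochondrial UMIs and more than 10000 UMIs at early anagen or 5000 in the bulb. These were 2785 of 11010 barcodes at early anagen, with 75718468 UMIs and a median of 24528 per cell, and 3734 of 4327 barcodes in the bulb, with 55883067 UMIs and a median of 14286.5. All 8 melanocyte markers were above 10 CPM in both groups, and their sum was 24638 CPM at early anagen and 67431 CPM in the bulb. The 9 epidermal markers summed to 36.5 and 66.3 CPM, and the fibroblast, immune and endothelial markers to at most 16.7 CPM each. The libraries shared 1 barcode, which was in neither group of melanocytes. Epidermal cells, with at least 2000 CPM of *Krt5*, *Krt10* and *Krt14*, numbered 113 at early anagen and 1 in the bulb. Their 9 epidermal markers summed to 26356 CPM, but they also held 4352 CPM of melanocyte markers, of which 1477 CPM was *Dct*. *Dct* is among the 8 melanocyte markers, and *Krt5*, *Krt10* and *Krt14* are among the 9 epidermal markers. The sums of these markers are thus partly set by the rules that define the groups.

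Each condition was 1 library, so no comparison was tested between samples and none has a p-value. Intervals are exact 95% intervals that cover counting error only and leave out the spread between cells. The chemistry of the droplet kit (version 3 at early anagen, version 2 in the bulb), depth, depilation, age and the way skin was dissociated all changed with the condition, and their parts cannot be told apart from that of the cells. By the published methods, early anagen skin was digested with trypsin, and bulbs were treated with EDTA, microdissected and digested with collagenase and dispase.

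Heat shock proteins are chaperones, which bind unfolded proteins and help them to fold or to be degraded. HSP70 proteins do this in cycles of ATP hydrolysis that are started by J-domain proteins of the HSP40 family and reset by exchange factors, and HSP90 takes over a set of client proteins, many of them kinases and transcription factors. Some of the genes are transcribed in every cell and others only after heat, oxidants or other damage, when the factor *Hsf1* binds heat shock elements, runs of the motif GAA in alternating directions. Transcripts of the inducible genes and of immediate early genes are also known to appear while tissue is dissociated into single cells.

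The inducible HSP70 is encoded by neighbouring intronless copies, *Hspa1a* at chr17:34969190-34972156 and *Hspa1b* at chr17:34956436-34959238, both on the minus strand of GRCm38. Their transcripts were 84.3% identical when aligned over the whole length (2967 and 2803 bases) but 50.1% identical over the last 300 bases, the end that these libraries read, so that UMIs can be assigned to one or the other where reads reach that end and are uncertain elsewhere. Promoters, from 250 bases before to 50 after the start, were given for 7 of the 10 genes in the RefSeq table of GRCm38.p6. Those of *Hspa1a* (chr17:34972107-34972406) and *Hspa1b* (chr17:34959189-34959488), both minus strand, are shown because these genes had the largest differences, with that of *Hspb1* (chr5:135887669-135887968, plus strand), which followed them from cell to cell. Those of *Hspe1* (chr1:55087898-55088197, plus strand) and *Dnajb1* (chr8:83607925-83608224, plus strand) are shown as genes that differed by less than 2-fold between the libraries. That of *Dnaja1*, which differed less than *Hspe1* (log2 ratios of -0.38 and -0.52), is not shown. Capitals mark pairs of heat shock units facing each other, GAANNTTC or TTCNNGAA, which read the same on both strands and can overlap.
*Hspa1a*: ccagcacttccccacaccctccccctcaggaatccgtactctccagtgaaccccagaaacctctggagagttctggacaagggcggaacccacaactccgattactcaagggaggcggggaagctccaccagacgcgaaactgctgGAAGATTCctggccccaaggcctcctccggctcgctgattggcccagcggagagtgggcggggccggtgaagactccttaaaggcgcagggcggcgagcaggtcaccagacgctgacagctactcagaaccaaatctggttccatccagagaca
*Hspa1b*: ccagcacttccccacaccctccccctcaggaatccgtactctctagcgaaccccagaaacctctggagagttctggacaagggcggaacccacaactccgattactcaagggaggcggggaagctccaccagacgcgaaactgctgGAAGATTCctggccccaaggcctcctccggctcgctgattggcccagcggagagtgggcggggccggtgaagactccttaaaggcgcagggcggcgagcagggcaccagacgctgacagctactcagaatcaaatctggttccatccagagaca
*Hspb1*: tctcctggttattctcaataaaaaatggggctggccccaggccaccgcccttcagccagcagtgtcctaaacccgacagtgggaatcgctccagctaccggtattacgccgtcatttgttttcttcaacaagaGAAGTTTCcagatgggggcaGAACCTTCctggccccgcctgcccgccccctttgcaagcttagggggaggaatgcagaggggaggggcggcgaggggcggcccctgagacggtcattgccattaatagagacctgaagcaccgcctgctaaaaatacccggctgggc
*Hspe1*: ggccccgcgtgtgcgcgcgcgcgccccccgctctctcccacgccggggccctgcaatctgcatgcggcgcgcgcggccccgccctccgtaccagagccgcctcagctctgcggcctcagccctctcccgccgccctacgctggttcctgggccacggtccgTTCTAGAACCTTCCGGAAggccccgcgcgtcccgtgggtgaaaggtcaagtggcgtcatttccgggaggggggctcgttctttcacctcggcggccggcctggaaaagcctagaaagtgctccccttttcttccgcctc
*Dnajb1*: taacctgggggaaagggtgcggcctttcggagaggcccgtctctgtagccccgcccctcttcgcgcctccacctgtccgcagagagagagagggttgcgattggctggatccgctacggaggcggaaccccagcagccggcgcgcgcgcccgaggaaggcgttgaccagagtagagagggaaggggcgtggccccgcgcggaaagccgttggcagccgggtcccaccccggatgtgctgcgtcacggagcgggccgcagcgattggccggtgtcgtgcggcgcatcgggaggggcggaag
The *Hspa1a* and *Hspa1b* promoters differed at 4 of 300 positions and held 1 pair at the same place. At least 1 pair was found in 6 of the 7 promoters, with 2 in *Hspb1*, 1 in *Dnaja1*, 3 overlapping pairs in *Hspe1*, 3 pairs in *Hsph1* and none in *Dnajb1*. Of 27025 promoters of the same length, 15.1% held a pair. A run of 3 units was in the promoters of *Hsph1* and *Hspe1* and in 0.529% of all promoters. These matches are letters of the sequence and no measure of binding. *Hspa8*, *Hsp90aa1* and *Hsp90ab1* were not in the table.

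Bulb melanocytes were compared with early anagen melanocytes first. The inducible pair *Hspa1a* and *Hspa1b* was nearly absent from bulb melanocytes, *Hspb1*, *Hsp90ab1* and *Hsp90aa1* were lower there, and the constitutive *Hspa8* and both J-domain genes differed by at most 1.3-fold. With the total UMIs as the scale, the ratio was below 0 on the log2 scale for 10 of 10 genes, beside 4428 of 8020 genes compared. With edgeR's TMM factors it was below 0 for 9 of 10. *Dnajb1* was then at 0.10, and *Hspa8* and *Dnaja1* were at -0.07. The median log2 ratio of the 10 genes was -1.11, beside -0.19 for the 8020 genes that reached 10 CPM in one group or both. At least 2-fold lower in the bulb were 6 of the 10, against 28.7% of all genes, and at least 2-fold higher were 0 of the 10, against 16.3%. With TMM factors 4 of the 10 were at least 2-fold lower, against 21.3% of all genes, and 24.4% of all genes were at least 2-fold higher. *Hsp90aa1* (-0.89) and *Hsph1* (-0.69) were then within 2-fold. Since another scaling moved the median of all genes to 0.18 (TMM factors) or to -0.39 (a total without mitochondrial, ribosomal protein and pigmentation genes), ratios are best read against it, and relative to it the members' median was -0.92.

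**Figure D1:**
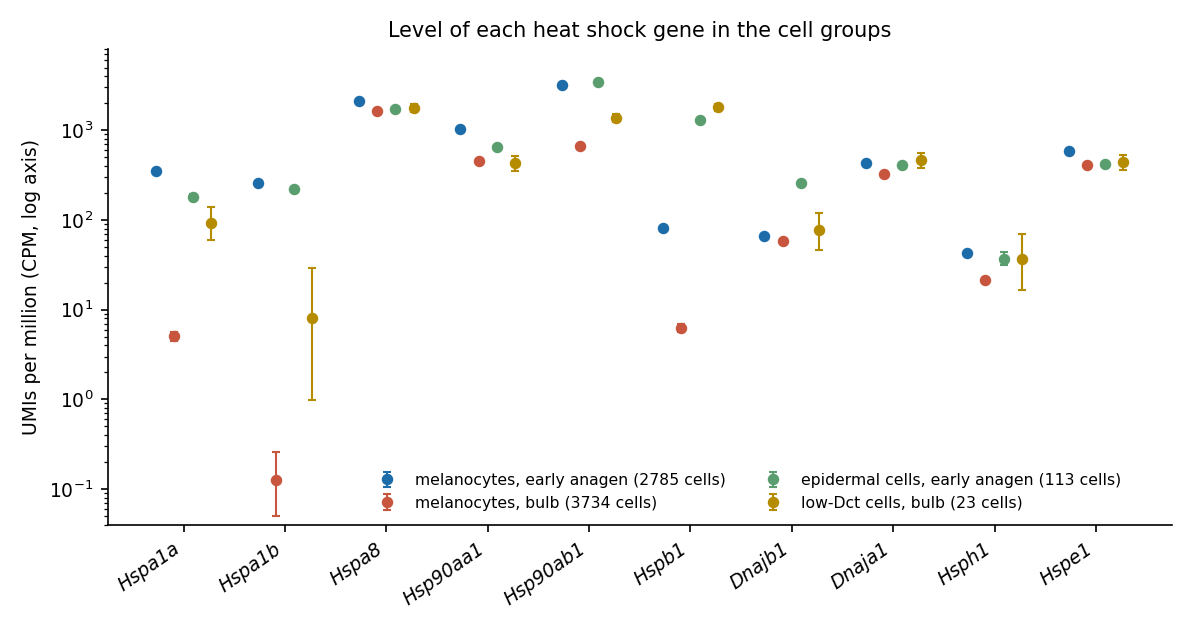
Level of each of the 10 genes in CPM on a log axis, in melanocytes of the early anagen and bulb libraries, in early anagen epidermal cells and in the 23 bulb cells of low *Dct*, with exact 95% Poisson intervals that cover counting error only and are mostly smaller than the points. *Hspa1a*, *Hspa1b* and *Hspb1* spread over orders of magnitude between the groups, while *Hspa8*, *Dnaja1* and *Hspe1* lie close together.

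Among the HSP70 genes, *Hspa1a* stood at 351 CPM (347 to 355) at early anagen, from 26577 UMIs, and at 5.06 CPM (4.49 to 5.69) in the bulb, from 283 UMIs. *Hspa1b* stood at 257 CPM from 19473 UMIs and at 0.125 CPM (0.0504 to 0.258) from 7 UMIs in 7 cells. Together the pair was 117-fold lower in the bulb, with 608 and 5.19 CPM. The log2 ratio was -6.11 (-6.29 to -5.95) for *Hspa1a* and -11.00 (-12.32 to -9.96) for *Hspa1b*, so the copies did not fall by the same factor. *Hspa1b* gave 42.3% (41.8 to 42.7) of the pair's UMIs in early anagen melanocytes and 2.41% (0.976 to 4.91) in bulb melanocytes. The share was 55.1% (52.6 to 57.5) in epidermal cells of early anagen, and 2 of 25 UMIs, or 8% (0.984 to 26), in the bulb cells of low *Dct* described below. The kit, and with it the reads, changed between the libraries, and its part in this share was not tested.

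*Hspa8*, the constitutive HSP70, was at 2142 CPM (2132 to 2153) at early anagen and at 1647 CPM (1636 to 1658) in the bulb, a log2 ratio of -0.38 (-0.39 to -0.37). It had a UMI in every melanocyte of both libraries. *Hsph1*, an HSP110 protein that exchanges nucleotide on HSP70, was at 42.8 and 21.3 CPM, a log2 ratio of -1.01 (-1.10 to -0.91) that lies at the 2-fold limit and inside it with the mean of each cell's CPM (-0.87) or TMM factors (-0.69). Of the J-domain genes, *Dnajb1* was at 66.7 and 57.7 CPM (-0.21, -0.27 to -0.15), the ratio nearest to 0 among the 10, and *Dnaja1* at 428 and 328 CPM (-0.38, -0.41 to -0.35). Relative to the median of all genes, *Dnajb1* was at -0.02 and *Dnaja1* and *Hspa8* at -0.20 and -0.19.

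The HSP90 genes were both lower in the bulb and by unequal amounts. *Hsp90ab1*, the constitutive form, went from 3222 CPM (3209 to 3234) to 669 CPM (662 to 676), 4.82-fold, and *Hsp90aa1*, the form that stress can raise, from 1043 CPM (1036 to 1051) to 452 CPM (446 to 457), 2.31-fold. The log2 ratios were -2.27 (-2.28 to -2.25) and -1.21 (-1.23 to -1.19), and with TMM factors -1.95 and -0.89, so that *Hsp90aa1* was no longer 2-fold lower. The constitutive form therefore had the larger difference, the reverse of the order in HSP70. *Hspe1*, the lid of the mitochondrial chaperonin, was at 592 and 412 CPM, a log2 ratio of -0.52 (-0.55 to -0.50). Its partner *Hspd1*, which starts in the opposite direction from the same region of chromosome 1, was at 599 and 202 CPM, a log2 ratio of -1.57 (-1.60 to -1.54).

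*Hspb1*, a small heat shock protein that holds unfolded proteins without ATP, was at 80.5 CPM (78.5 to 82.6) at early anagen and at 6.25 CPM (5.61 to 6.94) in the bulb. Its log2 ratio was -3.69 (-3.85 to -3.53). Of its 349 bulb UMIs, 278, or 79.7%, came from 21 melanocytes with less than 1000 CPM of *Dct*, which held 0.437% of all UMIs of the group. This limit was set after the values were seen. In the 3734 cells, those with 3 or more *Hspb1* UMIs of 5000 numbered 19, and their 9 epidermal markers summed to 10621 CPM against 19 CPM in the cells without an *Hspb1* UMI. Without the 21 cells *Hspb1* was at 1.28 CPM in the bulb, from 71 UMIs in 23 cells, and the log2 ratio, with the same limit on *Dct* at early anagen, was -5.95. For *Hspa1a* the same 21 cells gave 9 of 283 UMIs, and its level without them was 4.92 CPM.

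**Figure D2:**
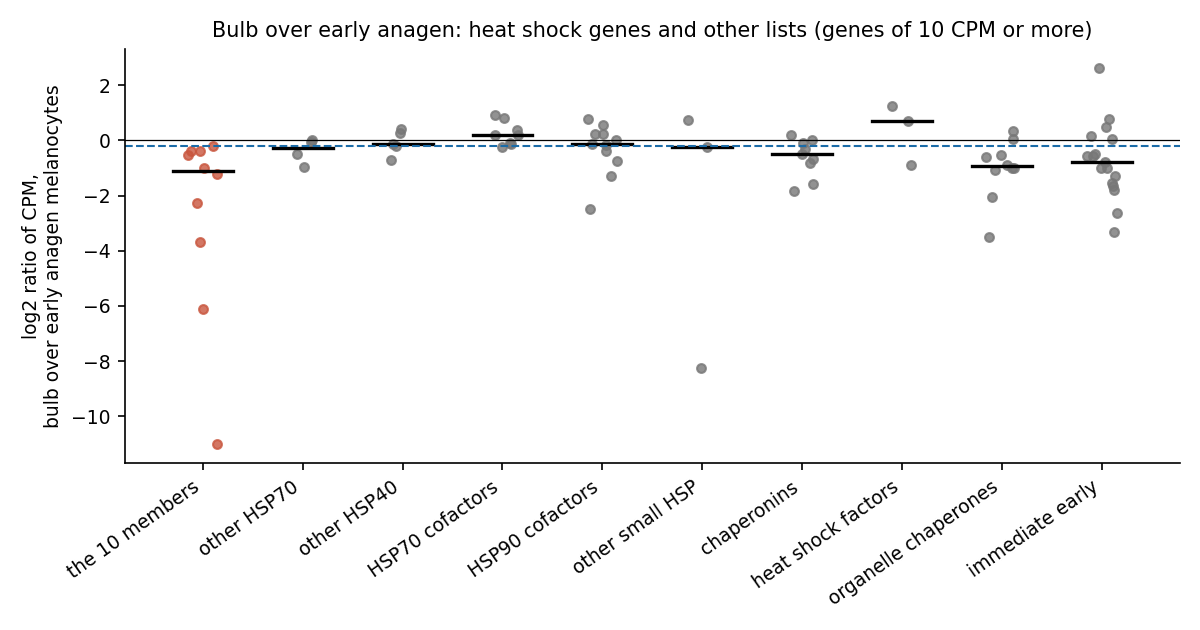
Log2 ratio of CPM, bulb over early anagen melanocytes, for each of the 10 genes (first column) and for genes of 9 other lists that reached 10 CPM in one library or both; bars are the medians of the lists and the dashed line is the median of the 8020 genes. The 10 genes spread from -0.21 to -11.00, and the lowest of the other lists is *Cryab* at -8.25; with TMM factors *Dnajb1* would lie at 0.10.

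TMM factors, which raised the ratios of the 10, were not applied to the lists of other genes. Directions and 2-fold counts of these lists therefore hold for total UMIs only. On that scale 4428 of the 8020 genes were lower in the bulb. The other HSP70 and J-domain genes and the cofactors of HSP70 and HSP90 had list medians from -0.29 to 0.19. The median was -1.11 for the 10 and -0.19 for all genes, while single genes of these lists differed more than most of the 10. Chaperonins, with a median of -0.49, and chaperones of the organelles, with -0.94, lay closer to the 10 and are given below. Of the 4 other HSP70 genes with at least 10 CPM, 3 were lower in the bulb and none reached 2-fold, with a median log2 ratio of -0.29 and the largest difference in *Hspa4* (-0.97, -1.01 to -0.92), an HSP110 protein like *Hsph1*. Of 5 other J-domain genes, 3 were lower and 2 higher, with a median of -0.13, *Dnajb4* at -0.70 and *Dnajb2* at 0.40. Above the median of all genes were 3 of these 5 and 2 of the 4 other HSP70 genes. Of 8 cofactors of HSP70, 5 were higher and 7 lay above the median of all genes. With total UMIs as the scale none reached 2-fold, with a median of 0.19. *Bag1*, an exchange factor, was at 0.91 and *Stub1*, a ubiquitin ligase for HSP70 clients, at 0.80. Of 11 cofactors of HSP90, 7 lay above the median of all genes. Of the 11, 6 were lower in the bulb and 2 of these at least 2-fold, against the 28.7% of all genes, with a median of -0.15. The 2 were the cochaperone *Ptges3* (p23), from 434 to 77.6 CPM (-2.48, -2.53 to -2.44), and the cyclophilin *Ppid*, from 91.3 to 36.8 CPM (-1.31, -1.38 to -1.24).

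Of 3 other small heat shock genes with at least 10 CPM, *Cryab*, the lens and muscle crystallin, was at 65.4 CPM at early anagen and at 0.215 CPM in the bulb (12 UMIs), a log2 ratio of -8.25 (-9.20 to -7.44), while *Hspb8* was higher in the bulb at 0.75 (0.67 to 0.83). Of 9 chaperonin genes 7 were lower, with a median of -0.49, led by *Cct2* (-1.82) and *Hspd1*. Of 10 chaperones of the endoplasmic reticulum and mitochondria 8 were lower, 4 of them at least 2-fold, beside 28.7% of all genes, with a median of -0.94. The lowest were *Hyou1* (-3.51) and *Hsp90b1* (-2.05), and *Hspa5* (BiP) was at 889.7 and 446 CPM. The transcription factor of the response, *Hsf1*, was higher in the bulb, with 26 CPM against 15.9 (0.71, 0.59 to 0.82), as was *Hsbp1*, a protein that binds it, with 516 CPM against 217 (1.25, 1.23 to 1.28), while *Hsf2* was lower (-0.91). Levels of *Hsf1* transcript do not show its activity. Of 17 immediate early genes 12 were lower in the bulb, 6 of them at least 2-fold, beside 28.7% of all genes, with a median of -0.79. *Atf3* (-3.32) and *Dusp1* (2.62) were the farthest in each direction. Of 7 genes of oxidative stress 4 were higher, with *Hmox1* (2.74) and *Srxn1* (2.19) farthest. The stress lists thus did not share 1 direction, and *Hspa1b* lay below every gene tested in these lists and *Hspa1a* below all but *Cryab*.

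Within the early anagen library, melanocytes were compared with 113 epidermal cells that had gone through the same digestion and sort. The epidermal cells also held the inducible HSP70 genes. *Hspa1a* was at 351 CPM in melanocytes and at 180.2 CPM (168 to 194) in epidermal cells (log2 ratio 0.96, 0.86 to 1.07), and *Hspa1b* at 257 and 221 CPM (0.22, 0.12 to 0.32), so the pair was 1.52-fold higher in melanocytes. Beyond 2-fold were 2 of the 10 genes, both lower in melanocytes, against 14.3% of 8505 genes lower and 13.8% higher, and none of the 10 was higher by 2-fold. These were *Hspb1*, at 80.5 CPM against 1298 CPM (1264 to 1333) in epidermal cells (-4.01, -4.06 to -3.96), and *Dnajb1*, at 66.7 CPM against 255 CPM (-1.94, -2.03 to -1.84).

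The other members lay between -0.10 (*Hsp90ab1*, -0.12 to -0.07) and 0.67 (*Hsp90aa1*, 0.61 to 0.72), beside a median of 0.25 over all genes, and the intervals of *Dnaja1* (0.07, -0.00 to 0.14) and *Hsph1* (0.21, -0.03 to 0.45) included 0. With a limit of 10000 CPM on the keratins, which left 47 epidermal cells, *Hspa1a* (1.09) and *Hsp90aa1* (1.26) also passed 2-fold, in the direction of melanocytes. The median of all genes was then 0.43, and 26.7% of them were at least 2-fold higher in melanocytes. *Hspa1a* passed it too against the 86 epidermal cells low in *Dct* (1.12) and with the mean of each cell's CPM (1.02), and stayed within it with TMM factors (0.82) and against epidermal cells of any UMI count and mitochondrial share (0.74). The 17 immediate early genes were lower in melanocytes in 17 of 17, 15 of them at least 2-fold, with *Fos* at 374 against 1110.4 CPM and *Jun* at 718 against 1524 CPM. The inducible HSP70 genes thus did not follow the immediate early genes between these cell types. No cell group of either library is known to lack these genes, so no share of free RNA could be taken from one.

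A lone bulb cell was epidermal by the rule, with 1 UMI of *Hspa1a* and 15 of *Hspb1*. It is 1 of 23 bulb cells that passed the quality limits but were not melanocytes by the rule and held less than 1000 CPM of *Dct*, a group defined after the values were seen. Their 8 melanocyte markers summed to 452 CPM and their 9 epidermal markers to 10409 CPM, most of it *Krt17* (5227 CPM) and *Sfn* (3453 CPM). Their 6 fibroblast markers summed to 122 CPM, against 0.823 CPM in bulb melanocytes, all of it from 30 *Dcn* UMIs in 3 of the cells, and the other 5 of these markers were at 0. *Hspa1a* was at 93.6 CPM (59.3 to 140.4), from 23 UMIs in 10 of the cells against 5.06 CPM in the bulb melanocytes, and *Hspb1* at 1806 CPM (1642 to 1982), above the 1298 CPM of the early anagen epidermal cells. *Hsp90ab1* was at 1371 CPM (1228 to 1525), against 669 CPM in bulb melanocytes and 3445 CPM in early anagen epidermal cells. *Hspa8*, *Dnaja1* and *Hspe1* were at 1778, 464 and 439 CPM, close to their levels in the melanocytes of both libraries. The pair was at 102 CPM (65.8 to 150.1) in these cells of the bulb library, against 401 CPM in the early anagen epidermal cells.

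How the molecules were spread over cells was compared with every cell thinned at random to 5000 UMIs. The inducible genes were unequal between early anagen melanocytes. The pair had no UMI in 1456 of 2785 cells (52.3%), 10 or more in 290 cells (10.4%) and up to 129 in a cell, and the 10% of cells with the most held 67.8% of its UMIs. Its variance was 21.7 times its mean, against 2.05 for *Hspa8*, 2.17 for *Hsp90aa1*, 2.64 for *Hsp90ab1*, 1.63 for *Hspe1* and 1.51 for *Dnaja1*, where a Poisson count gives 1. *Hspb1* was unequal too, with a UMI in 14.8% of cells, a variance of 11.2 times the mean and 89.3% of its UMIs in the top 10% of cells.

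Epidermal cells of the same library held the pair more evenly, with a UMI in 82 of 113 cells (72.6%), at most 11 in a cell and a variance of 2.34 times the mean. Their level of the pair was lower, so fewer UMIs were spread over more of the cells. The variance of *Hspb1* in epidermal cells was 24.3 times the mean, with a median of 2 UMIs and up to 77 in a cell. This ratio can grow with the mean, which was 6.19 UMIs there and 0.442 in melanocytes. By shares *Hspb1* was more even in epidermal cells, with a UMI in 77% of them against 14.8% of melanocytes. The top 12 of the 113 cells held 59.1% of its UMIs, against 89.3% in the top 10% of melanocytes. Its 1298 CPM in epidermal cells thus rests largely on few cells. In the bulb the pair was seen in 76 of 3734 melanocytes (2.04%), with at most 3 UMIs. Without thinning, 230 bulb melanocytes (6.16%, 5.41 to 6.98) had an *Hspa1a* UMI, against 1714 (61.5%) at early anagen.

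**Figure D3:**
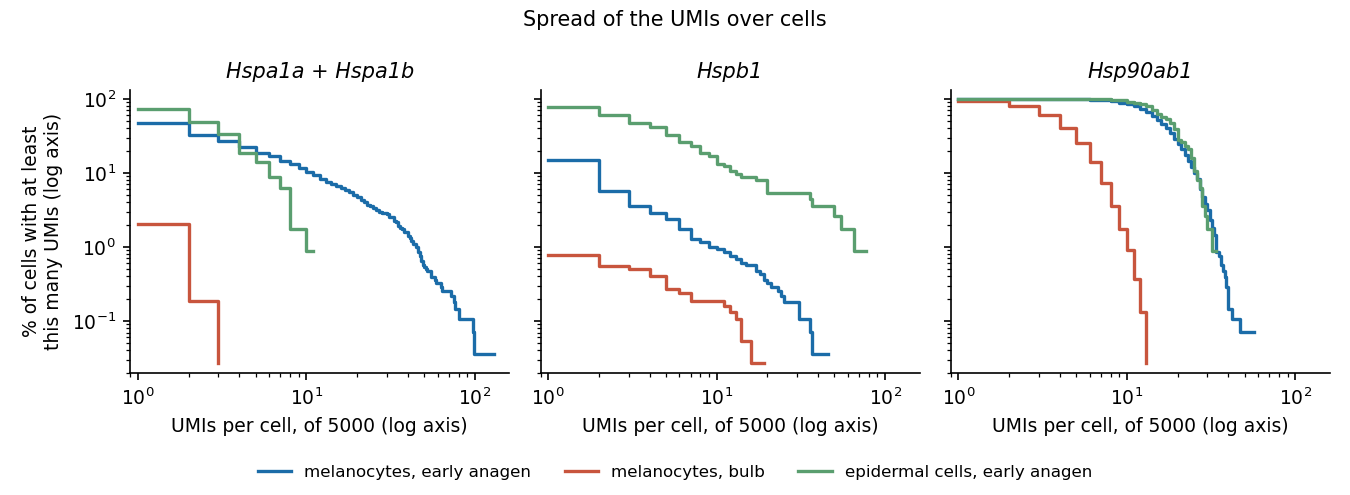
Share of cells with at least a given number of UMIs, out of 5000 per cell, for *Hspa1a* and *Hspa1b* together, *Hspb1* and *Hsp90ab1*, on log axes. In early anagen melanocytes the pair has a long tail to 129 UMIs, which epidermal cells (at most 11) and bulb melanocytes (at most 3) lack, while the *Hsp90ab1* curves of both early anagen cell types, with medians of 15 UMIs in melanocytes and 17 in epidermal cells, lie above that of the bulb, with a median of 3.

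The median melanocyte held UMIs of 6 of the 10 genes at early anagen and of 5 in the bulb, and the median epidermal cell of 7, at 5000 UMIs each. All 10 were found together in 17 of 2785 early anagen melanocytes (0.61%), 3 of 113 epidermal cells (2.65%) and 0 of 3734 bulb melanocytes. In early anagen melanocytes *Hspa1b* had a UMI in 69.7% of the 1045 cells with *Hspa1a* and in 16.3% of the 1740 without it, and *Hspb1* in 23.7% and 9.37%. *Dnajb1* was found in 30% and 24.3% of the same cells and *Hsph1* in 20.4% and 14.7%. In epidermal cells *Hspb1* was found in 82.4% of the 51 cells with *Hspa1a* and in 72.6% of the 62 without it. It was found in 77% of all epidermal cells and in 14.8% of melanocytes, so these gaps cannot be ranked between the cell types.

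The cells with 10 or more UMIs of the pair were set beside those with none, for the 8 members that did not define them. Of these 3 were at least 2-fold higher, against 2.2% of 7906 genes, and none was at least 2-fold lower, against 0.936%. *Hspb1* was at 480.0 CPM in the 290 cells and at 25.3 CPM in the 1456 cells without the pair (log2 ratio 4.25, 4.01 to 4.49), *Dnajb1* at 148 and 59.3 CPM (1.31, 1.07 to 1.55) and *Hsph1* at 73.8 and 33.1 CPM (1.16, 0.81 to 1.49). *Hsp90aa1* (0.49), *Dnaja1* (0.48), *Hspe1* (0.41) and *Hspa8* (0.35) were higher by less, and *Hsp90ab1* had an interval from -0.00 to 0.09. The genes thus formed a series from *Hspb1* to *Hsp90ab1*, beside a median of 0.05 over all genes.

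*Jun* (2.14, 2.07 to 2.21), *Fos* (1.90, 1.80 to 1.99) and *Atf3* (1.29) were also higher in these 290 cells, as was *Cryab* (1.06, 0.80 to 1.31), while *Hspd1* was at 0.13 and *Hspa5* at 0.11. The 290 cells had a median of 21344 UMIs before thinning, against 25692 in the cells without the pair, and 3.15% against 3.02% mitochondrial UMIs. Before thinning, and so at these unequal depths, a UMI of the cell-cycle genes *Mki67* or *Top2a* was found in 30% of the 290 cells, against 48.6%. After thinning, the epidermal markers summed to 33.1 against 32.4 CPM. The part of depth and of the cell cycle in these differences was not tested.

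Across the 2785 early anagen melanocytes at 10000 UMIs, log UMIs of *Hspa1a* and *Hspa1b* had a correlation of 0.81. They had 0.37 and 0.38 with *Hspb1*, 0.19 and 0.21 with *Dnajb1*, 0.19 and 0.21 with *Hspa8* and 0.03 with *Hsp90ab1*. A separate group was *Hspe1*, *Hsp90ab1*, *Hsp90aa1* and *Hspd1*, with 0.36 between *Hspe1* and *Hsp90ab1*, 0.32 between *Hspe1* and *Hsp90aa1* and 0.43 between *Hspd1* and each of *Hspe1* and *Hsp90ab1*. The cells share 1 library and 1 depth, and low genes have low correlations by counting alone. In the bulb, at 5000 UMIs and with few UMIs of the inducible genes, the highest value between members was 0.07, of *Hspe1* with *Hsp90ab1*.

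**Figure D4:**
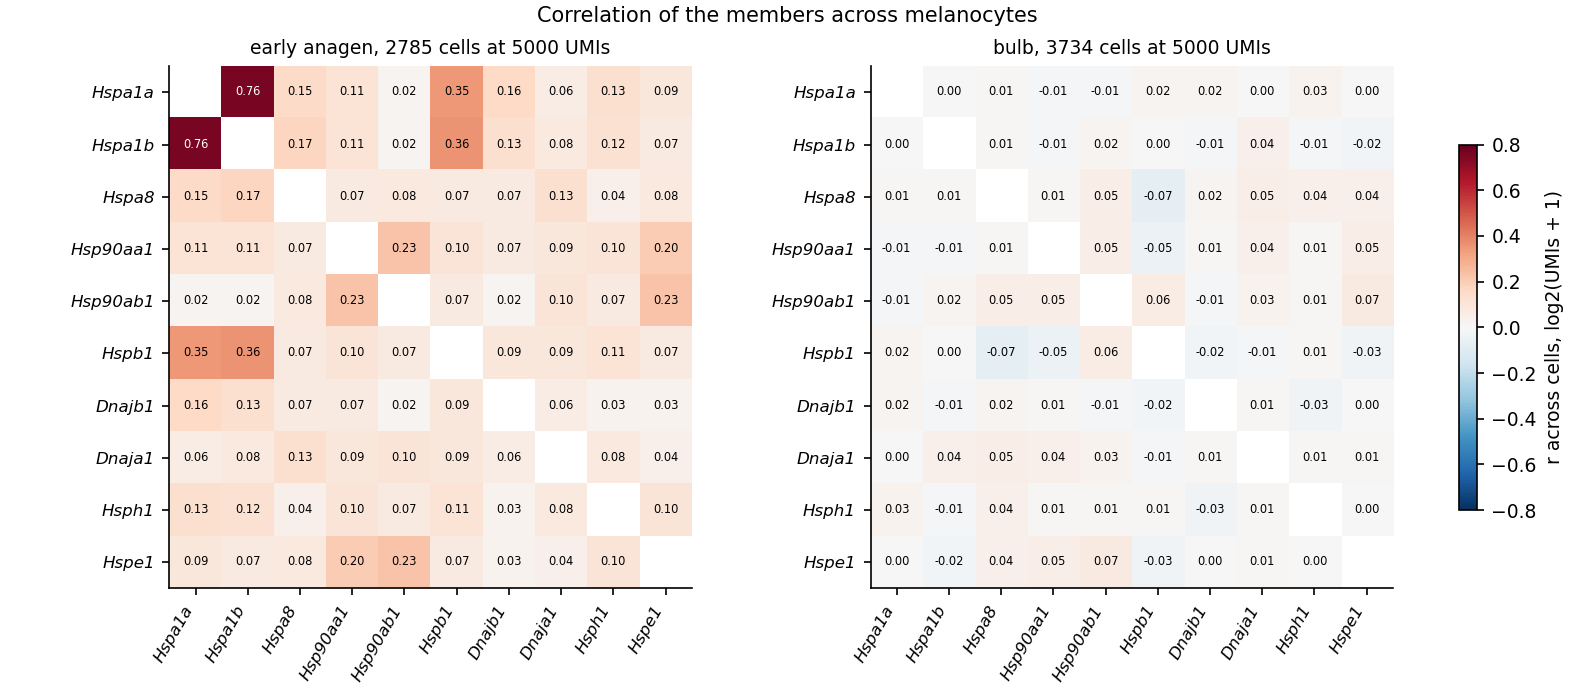
Correlation (r) of log2(UMIs + 1) between the 10 genes across melanocytes of each library, every cell thinned to 5000 UMIs; red is positive and blue negative. At early anagen *Hspa1a* and *Hspa1b* have 0.76 with each other and 0.35 and 0.36 with *Hspb1*, and the HSP90 genes and *Hspe1* form a weaker block; the bulb values are all between -0.07 and 0.07.

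Of 7160 other genes found in at least 10% of early anagen melanocytes at 10000 UMIs, those most like the sum of *Hspa1a* and *Hspa1b* were *Jun* (0.45), *Fos* (0.35), *Ccn1* (0.34), *Hes1* (0.33) and *Btg2* (0.32). With total UMIs as the scale, none of these genes differed by 2-fold between the libraries. TMM factors, which raised the ratios of the 10 members, were not applied to them. *Fos* was higher in bulb melanocytes, with 639.5 CPM against 374 (0.78, 0.75 to 0.80), *Ccn1* was nearly level (0.11, 0.07 to 0.14), and *Hes1* (-0.35), *Jun* (-0.58) and *Btg2* (-0.79) were lower, as the pair was. Across bulb melanocytes, *Fos* and *Jun* kept a correlation of 0.50 with each other at 5000 UMIs.

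*Oca2*, which encodes a melanosomal channel protein and rises as melanocytes differentiate, had a UMI in 292 of the 2785 early anagen melanocytes at 10000 UMIs and in 3226 of 3734 bulb melanocytes at 5000 UMIs. *Oca2*+ cells were compared with *Oca2*- cells, at early anagen first. None of the 10 was 2-fold higher or lower, against 1.49% and 2.38% of 7734 genes, so this count does not set the 10 apart from other genes. *Hspa1a* was at 391 CPM in *Oca2*+ and at 415 CPM in *Oca2*- cells (-0.08, -0.17 to 0.00), and *Hspa1b* at 290.1 and 302 CPM (-0.06, -0.16 to 0.05). Their direction changed with the setting. The log2 ratios were 0.26 and 0.30 with at least 2 *Oca2* UMIs, and -0.32 and -0.28 without cells holding *Mki67* or *Top2a* UMIs. The level of both genes in *Oca2*+ early anagen cells was thus near that of the other early anagen cells and not near that of the bulb.

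Among *Oca2*+ cells the values with intervals below 0 were those of *Hspb1* (52.7 against 95.1 CPM, -0.85, -1.10 to -0.62), *Hsp90ab1* (-0.30, -0.33 to -0.26), *Hspe1* (-0.26, -0.34 to -0.18), *Dnaja1* (-0.15) and *Hsp90aa1* (-0.12), and *Hspa8* was higher (0.06, 0.02 to 0.09). With at least 2 *Oca2* UMIs, *Hspb1* passed 2-fold (-1.90), and without thinning it was at -0.47. Only 54 of the 292 *Oca2*+ cells had an *Hspb1* UMI. Across early anagen melanocytes at 10000 UMIs the variance of *Hspb1* was 21.3 times its mean, so its interval is too narrow for the spread between cells. This holds as well for *Hspa1a* and *Hspa1b* in the splits of this library, with variances of 26.3 and 19.6 times their means. The intervals of the other members are also too narrow, by less. Their variances were from 1.45 (*Hsph1*) to 4.17 (*Hsp90ab1*) times the mean, with 3.08 for *Hspa8*. Chaperonins were lower in 9 of 9, with a median of -0.20, and chaperones of the organelles higher in 8 of 10, with a median of 0.29, beside 0.02 over all genes. Median UMIs before thinning were 27409 in *Oca2*+ and 24119 in *Oca2*- cells.

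In the bulb, 8 members had at least 10 CPM in either group. At least 2-fold lower in *Oca2*+ cells was 1 of them, *Hspb1*, with 1.05 against 53.9 CPM (-5.68, -6.50 to -4.95), against 1.96% of 6883 genes, and 0 were 2-fold higher, against 0.116%. The *Oca2*- cells of the bulb also held 432 CPM of the 9 epidermal markers, against 20.5 CPM in *Oca2*+ cells. Without the cells under 1000 CPM of *Dct*, *Hspb1* had 17 UMIs among *Oca2*+ cells (1.05 CPM) and 8 among *Oca2*- cells (3.28 CPM). This was still 3.11-fold lower (-1.64, -2.93 to -0.22) but below the 10 CPM from which genes were compared, and no member above it was 2-fold apart. *Hsp90ab1* was again lower in *Oca2*+ cells, with 639 against 788 CPM (-0.30, -0.37 to -0.23), and the intervals of *Hspa8*, *Hsp90aa1*, *Dnajb1*, *Dnaja1*, *Hsph1* and *Hspe1* included 0. *Hspa1a*, below 10 CPM, was at 3.97 and 7.09 CPM, from 64 and 18 UMIs.

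**Figure D5:**
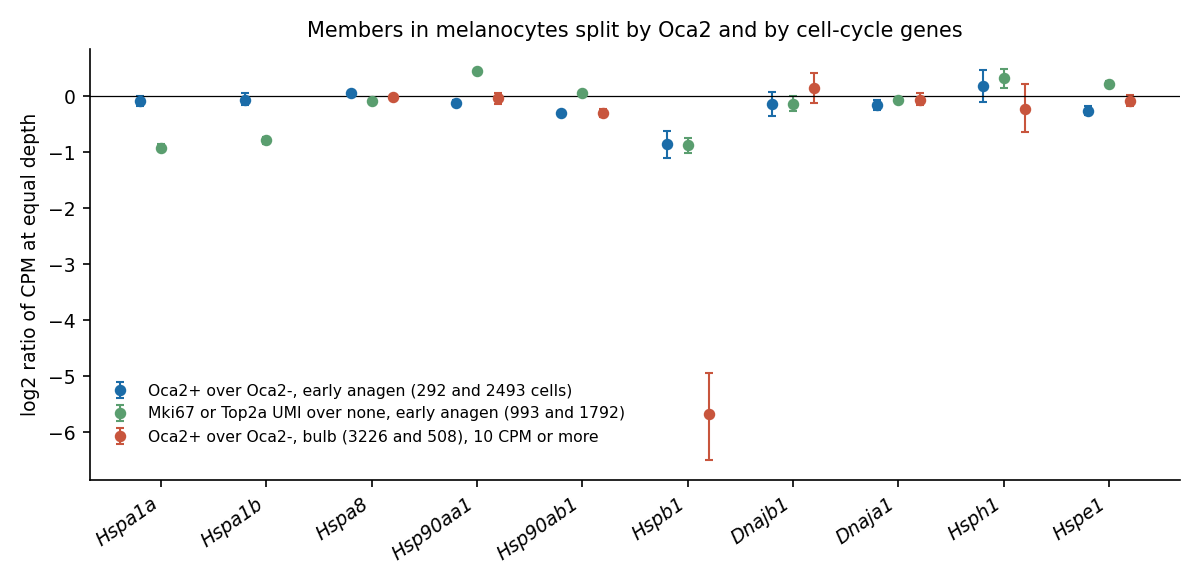
Log2 ratio of CPM at equal depth for each of the 10 genes, *Oca2*+ over *Oca2*- melanocytes in each library and, at early anagen, melanocytes with over those without a UMI of *Mki67* or *Top2a*; bars are exact 95% intervals of counting error. Nearly all values lie within 1 of 0, and *Hspb1* in the bulb, at -5.68, is the exception; genes below 10 CPM in both bulb groups are left out.

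A split of early anagen melanocytes by the cell-cycle genes *Mki67* and *Top2a* was added after the values were seen. With every cell thinned to 10000 UMIs, cells with a UMI of either numbered 993, and 1792 had none. *Hspa1a* was at 263 CPM in the 993 and at 495 CPM in the 1792 cells (-0.92, -0.98 to -0.85), *Hspa1b* at 205 and 354 CPM (-0.79, -0.86 to -0.72) and *Hspb1* at 59.1 and 108 CPM (-0.87, -1.01 to -0.74). *Hsp90aa1* (0.45, 0.42 to 0.49), *Hsph1* (0.32, 0.14 to 0.49), *Hspe1* (0.22, 0.17 to 0.27) and *Hsp90ab1* (0.06, 0.04 to 0.08) were higher in cycling cells, beside a median of -0.02 over all genes. The inducible HSP70 genes and *Hsp90aa1* thus went in opposite directions. Beside the values of the *Oca2* split, those of *Hspa1a*, *Hspa1b*, *Hsp90aa1* and *Hsph1* were farther from 0 here, and those of *Hsp90ab1* and *Dnaja1* were nearer to it. Median UMIs before thinning were 34875 and 21039, and the part of cell size was not tested.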

How the data were processed

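Single cells of 2 libraries, 1 per condition, were analysed. The authors had run Cell Ranger, version 6.0.1 by the submitters' processing notes, against mm10, and deposited raw UMI counts per gene and barcode with no normalization. Counts were read with Python 3.11.15, numpy 2.4.6, scipy 1.17.1 and pandas 2.3.3, and transcripts were aligned with Biopython 1.88. No cell calls beyond the limits in the report were made and doublets were not removed. UMIs were summed over a cell group and scaled to CPM, and genes that reached 10 CPM in one group or both were compared. Called means at least 2-fold, as no test was possible with 1 library a group. Ratios have exact conditional intervals of 2 Poisson sums and shares Clopper-Pearson intervals, at 95%. For splits within a library and for spread over cells, each cell was thinned at random to a fixed number of UMIs. The ratios were tested on simulated Poisson counts. These lack the spread between cells, so the test cannot show how the intervals do with it.

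The 10 genes, the companion lists, the melanocyte rule and the split by *Oca2* were chosen with earlier results of these data known. Genes named beside the members were the 2 of each companion list with the largest ratio between the libraries, a few fixed by name, and the 5 most like *Hspa1a* and *Hspa1b*. Bag, small heat shock, stress and marker genes outside that rule are named as values of their lists or were chosen after their values were seen. Alternatives were other cell limits, edgeR 4.0.16 TMM factors in R 4.3.3, a reduced total, means of each cell's CPM, thinning and other definitions of epidermal and *Oca2*+ cells.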

Additional observations from a re-analysis of the deposited data

Results flagged for a closer look

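Members were also counted in some of the barcodes that the comparisons leave out. These met the *Dct* and keratin limits but had too few UMIs or too many mitochondrial UMIs, or were the 23 bulb cells of low *Dct*. At early anagen 679 cells passed the quality limits but were not melanocytes by the rule. The 113 epidermal cells were among them, and the others were not examined. In the bulb 40 such cells included the 23, and the rest were not examined. Listed here is each member at least 2-fold above the melanocytes of the same library with intervals that do not overlap. *Hspb1* was at 163 CPM in the 3266 early anagen barcodes of few UMIs, against 80.5 CPM in melanocytes. In the bulb it was at 134 CPM in 81 barcodes of few UMIs (30 UMIs in 7 barcodes) and at 66.7 CPM in 110 barcodes of high mitochondrial share (61 UMIs in 4 barcodes), against 6.25 CPM. *Hspa1b* was at 8.91 CPM in the bulb barcodes of few UMIs, from 2 UMIs, against 0.125 CPM. In the 23 low-Dct bulb cells *Hspa1a* was at 93.6 CPM, *Hspa1b* at 8.14 CPM, *Hsp90ab1* at 1371 CPM and *Hspb1* at 1806 CPM.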

How the results depend on the processing

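With total UMIs as the scale, and in each alternative other than TMM, all 10 genes had lower values in the bulb. TMM factors put *Dnajb1* at 0.10, the 1 value that changed direction, and gave 4 of 10 genes at least 2-fold lower, against 21.3% of all genes, with a median of -0.79, since *Hsp90aa1* (-0.89) and *Hsph1* (-0.69) came within 2-fold. The median was -1.27 with the reduced total and -0.99 with the mean of each cell's CPM. Across the other alternatives the count of genes at least 2-fold lower was 5 or 6, since *Hsph1* lies at the limit. The ratio of *Hspa1a* ranged from -6.53 to -5.80, of *Hspa1b* from -11.48 to -10.69, of *Hsp90ab1* from -2.43 to -1.95 and of *Hspb1* from -6.50 to -3.38, the lowest value of *Hspb1* being that with at least 5 *Dct* UMIs and no *Krt10* or *Krt14* UMI per cell.

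Between melanocytes and epidermal cells 4 genes were 2-fold apart with a keratin limit of 10000 CPM, and 3 with epidermal cells low in *Dct* or with the mean of each cell's CPM, *Hspa1a* being the one added. In the *Oca2* split 1 gene was 2-fold apart at early anagen with at least 2 *Oca2* UMIs, and 1 without cells holding *Mki67* or *Top2a* UMIs, *Hspb1* both times. Of all genes, 4.51% were lower and 2.66% higher by 2-fold in the first setting, and 2.25% and 1.84% in the second. In the bulb 2 were apart without thinning, *Hspb1* and *Hspa1a* (-1.27), against 5.36% of all genes lower and 0.896% higher. With at least 1000 CPM of *Dct*, a limit chosen after seeing the data, 0 were, because *Hspb1*, still at -1.64, fell below 10 CPM. The median number of genes found per cell was 8 and 6 without thinning. Epidermal cells of the bulb were not compared, being 1 cell, or 4 with no quality limits. With 1 library a group none was left out, and no paired analysis was possible because each group is 1 library. Below about 10 CPM, as for *Hspa1a*, *Hspa1b* and *Hspb1* in the bulb, values rest on few UMIs and few cells.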
